A study of Mus musculus with 4 samples.

Results

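The genes described here encode components of stress granules (SGs) and processing bodies (P-bodies). They are 48 of the 34745 genes in the expression table of cultured mouse macrophages. They were listed by symbol from their known place in these granules, not picked by their values, but with earlier results of these data known. By main role, 36 of them are SG members and 12 are P-body and mRNA decay members. A set of 8 occurs in both granules: Ddx6, Ago2, Zfp36, Rc3h1, Upf1, Xrn1, Ythdf2 and Pum2. Each gene had a row in the table, and 47 of the 48 passed the filter on low counts.

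Total RNA of macrophages was sequenced in 4 libraries, WT replicates 1 and 2 and KO replicates 1 and 2. The WT label stands for G3bp1f/f mice, which carry floxed alleles of G3bp1, and the KO label for G3bp1mac-/- mice, in which the floxed alleles were combined with Lyz2-Cre. Lyz2 drives Cre in monocytes, macrophages and granulocytes. The cells were bone marrow-derived macrophages per the study's text, and all libraries shared the same culture in DMEM with serum, with no treatment named in the labels. The labels do not say whether replicates came from separate mice or cultures, so p-values measure only the spread between these libraries, which may be technical.

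SGs are cytoplasmic condensates that gather when translation initiation stalls. They hold untranslated mRNA, the small ribosomal subunit, initiation factors and RNA-binding proteins, and G3BP1 is their main scaffold. P-bodies are distinct condensates present without stress, and they hold decapping enzymes, deadenylases and proteins of mRNA repression. The granule proteins are mostly abundant RNA-binding proteins with other duties in diffuse form, so the amount of their mRNA does not measure granules.

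The libraries held between 16724241 and 19747909 counts, without molecular identifiers, and 12418 genes were tested. The leading principal component of the tested genes took 62.2% of the variance and separated replicates numbered 1 from replicates numbered 2, and the next took 30.6% and separated the genotypes. G3bp1, the targeted gene, had 104 and 180 CPM (counts set relative to TMM-scaled totals) in WT replicates 1 and 2 and 70.1 and 117 CPM in KO replicates 1 and 2. Its log2 fold change was -0.61 (SE 0.40 and adjusted p 0.904 in edgeR), or -0.19 without WT replicate 2 and -1.03 without KO replicate 2. With a block for replicate number it was -0.60 (adjusted p 0.085 in edgeR). With each library's trend with transcript length removed as well, it was -0.83 (adjusted p 0.0022 in edgeR). The genotypes overlapped, while KO was lower by a log2 ratio of -0.57 between the libraries numbered 1 and -0.63 between those numbered 2. A count over the whole gene cannot show whether 1 deleted part is missing, so G3bp1 checks the labels only in part: its counts ran the way the labels say within both numbers, by less than the spread between replicates.

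The components spanned a wide range of abundance. Per kb of the longest annotated transcript, the tested members ranged from 1.99 to 591 CPM with a median of 13.3, against a median of 5.78 CPM per kb over all genes tested. The SG members had a median of 19.6 CPM per kb, and 32 of 35 lay above the median of all genes tested. The P-body and decay members had a median of 5.62 CPM per kb, and 6 of 12 lay above it. In these macrophages the mRNAs of SG proteins were thus mostly above the middle of the genes tested, and those of P-body proteins sat around it.

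**Figure D1:**
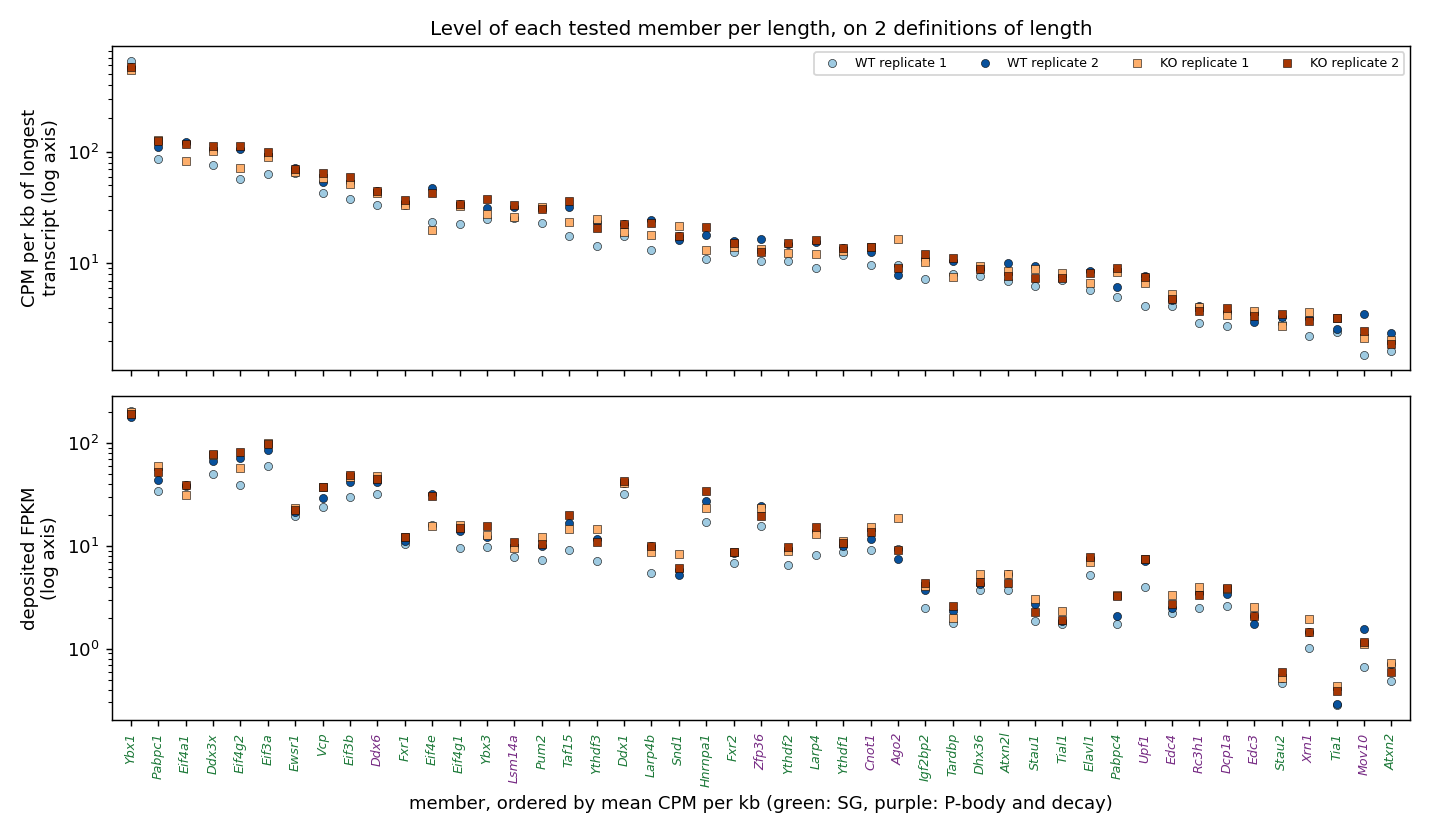
Level of each tested member in the 4 libraries, in CPM per kb of the longest annotated transcript (top) and in deposited FPKM (bottom), both on log axes, with SG members in green and P-body and decay members in purple. Points are single libraries: Ybx1 stands highest on both scales, and the order of the other members shifts between the length definitions, with Tia1 lowest on FPKM.

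At the top stood Ybx1, the abundant cold-shock protein that packages mRNA, at between 545 and 657 CPM per kb over the 4 libraries. It was followed by Pabpc1, the cytoplasmic poly(A)-binding protein, with a mean of 112 CPM per kb, and Eif4a1, the cap-complex helicase, with 110. These did not differ beyond their spread over libraries (SD 18.8 and 18.3). Ddx3x, a helicase that unwinds mRNA leaders, had 98.9, Eif4g2 had 87.1 and Eif3a, an eIF3 subunit, had 86.4 CPM per kb, again with SDs wider than the gaps between them. Ybx1, Pabpc1, Eif4a1 and Hnrnpa1 have processed pseudogenes, so reads shared with near-identical copies make their levels less certain.

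The most abundant P-body member was Ddx6, the helicase of translational repression that P-bodies are built on, with 41.3 CPM per kb (SD 5.37 over the 4 libraries), at rank 10 of the 48. Lsm14a, a scaffold partner of DDX6, had 29.3 CPM per kb. The other P-body and decay members were lower. Zfp36, which binds AU-rich elements of cytokine mRNAs, had 13.3, Cnot1, the scaffold of the CCR4-NOT deadenylase, had 12.6, and Ago2, the slicing Argonaute, had 10.8 CPM per kb. Upf1, the helicase of nonsense-mediated decay, had 6.50 and Edc4, the decapping scaffold, had 4.73. Dcp1a, the activator of the decapping enzyme, and Edc3 had 3.44 each, and Xrn1, the cytoplasmic 5′ to 3′ exonuclease, had 3.04.

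Some classical SG markers stood near the bottom of the order. Tia1, a prion-like protein whose antibody staining is a standard SG marker, had 2.85 CPM per kb (SD 0.42), and Atxn2, a poly(A)-binding protein partner, had 1.99 (SD 0.32), the lowest of the tested members. Mov10, an RNA helicase, lay between them with 2.41 (SD 0.85), and its spread spanned both neighbours. Igf2bp3, an oncofetal mRNA-binding protein, was listed with 0 and 2 counts for WT and with 2 and 0 for KO. Each of these counts lies within the 3 counts that an observed 0 allows (0.152 to 0.188 CPM, counting error only), and this was the 1 member not tested. Its paralogue Igf2bp2 had 10.2 CPM per kb.

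Levels depended on the length used. The length implied by the deposited counts and FPKM was longer than the longest annotated transcript for most members. The median ratio was 1.86 (range 0.52 to 8.28), and 22 of 48 were over 2. Over the 12383 tested genes with an annotated length the median was 1.62, and 4297 were over 2. Among members the ratio was highest for Tia1, so its mean deposited FPKM was 0.348 and ranked 47 of 48. Ddx1 had the lowest ratio of the members and ranked 8 on FPKM but 19 on CPM per kb. Levels between genes are therefore compared on CPM per kb, and differences of 1 gene between libraries on CPM, without division by a length.

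Within families of paralogues the same gene led in every library on the per kb scale. Tial1 supplied most of the Tia1 and Tial1 mRNA, with Tia1 at 25.7% and 25.1% in the WT libraries and 28.3% and 30.6% in the KO libraries. Atxn2 made between 19.0% and 19.6% of the Atxn2 and Atxn2l total. Pabpc4 made 5.53% and 5.31% of the Pabpc1 and Pabpc4 total in WT and 6.13% and 6.74% in KO. The shares of Tia1, Atxn2 and Pabpc4 were thus higher in both KO libraries. Those of the other minor partners Ybx3, Fxr2 and Stau2 overlapped between the genotypes. Ybx1 held between 93.9% and 96.4% of the Ybx1 and Ybx3 total, and Fxr1 between 69.3% and 72.8% of the total of the fragile X-related pair. Among the readers of N6-methyladenosine, Ythdf3 was the most abundant, with 39.1% and 45.0% in WT and 49.5% and 41.7% in KO, although on deposited FPKM Ythdf1 was above it in WT replicate 1. For the La-related pair of mRNA-binding proteins, Larp4b was the larger partner per kb (59.0% to 61.1%) and Larp4 the larger on FPKM (58.1% to 60.3%).

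The main comparison asked whether the intended loss of the SG scaffold gene was accompanied by other levels of the mRNAs of the remaining granule proteins. No member passed the test: in edgeR's quasi-likelihood test, with limits of 0.05 on the adjusted p and of 1 on the absolute log2 fold change, 0 of 47 were called, where 0% of the 12418 genes were, and with no minimum fold change again 0 of 47 and 0%. At an unadjusted p under 0.05, 1 member, Pabpc4, was higher in KO, against 4.64% of all genes, and 0 were lower, against 1.99%. The DESeq2 Wald test and the edgeR exact test, which called 1.46% and 1.85% of all genes, also called 0 members. With a block for replicate number in edgeR and no minimum fold change, 0 members passed, against 7.84% of all genes. With each library's trend with transcript length removed as well, 1 member passed, Pabpc4, against 5.82%. In the main comparison, log2 fold changes of members ran from -0.27 to 0.63, with edgeR adjusted p-values from 0.686 to 0.996.

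The intervals reflect only the spread between these libraries, which may be technical. The 95% confidence interval lay within a 2-fold change either way for 35 of 47 members, against 42.6% of all genes. It did so for 26 of 35 SG members and 9 of 12 P-body and decay members. The widest interval was that of Eif4e, the cap-binding protein, whose 4 values of 117 and 236 CPM in WT and 98.2 and 212 CPM in KO followed the replicate number.

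**Figure D2:**
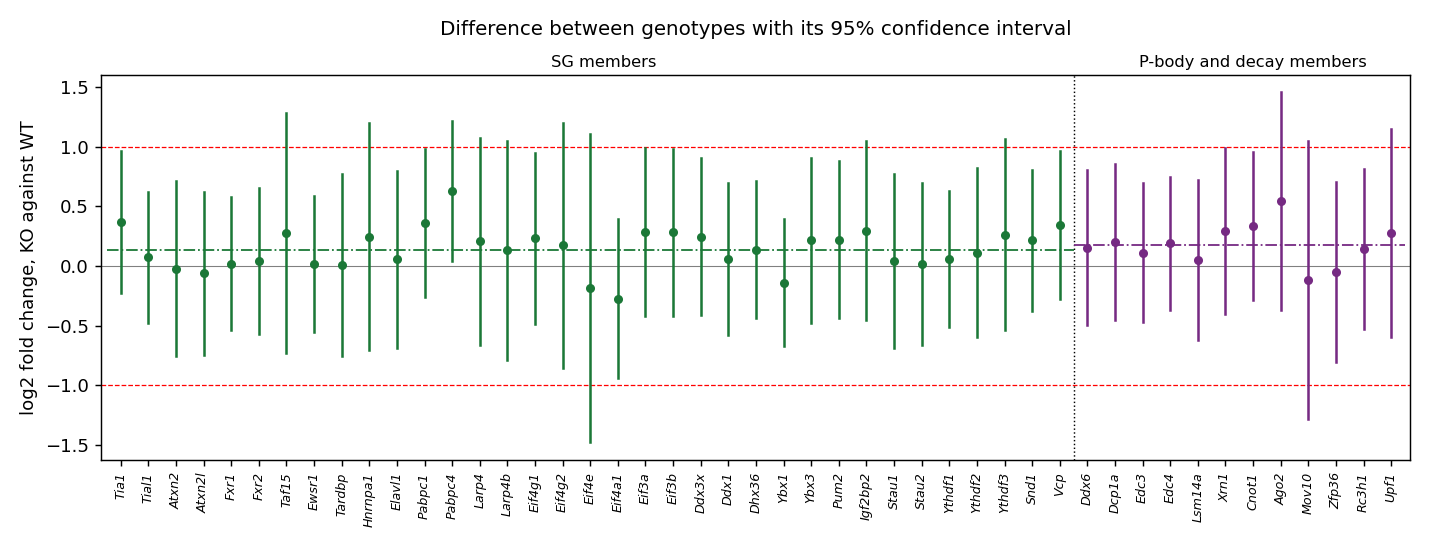
Log2 fold change of KO against WT for each tested member (points) with its 95% confidence interval from the edgeR fit (vertical lines). SG members are green and P-body and decay members purple, dash-dotted lines are the class medians of 0.14 and 0.17, and red dashed lines mark a 2-fold change. Only the interval of Pabpc4 leaves out 0.

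The WT values both lay below the KO values for 7 of 47 members (14.9%), against 19.9% of all genes, and both above them for 2 of 47, against 16.9%. The 7 were Tia1, Pabpc1, Pabpc4, Snd1 and Vcp of the SG members and Edc4 and Cnot1 of the P-body members. The 2 were Eif4a1 and Ybx1, both SG members. With DESeq2 size factors Snd1 left the 7. With length correction, in which each library's trend with transcript length was removed, Snd1, Edc4 and Cnot1 left them, Ybx3 joined them, Ybx1 turned from below to above, and Atxn2 came to lie below.

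Among the poly(A)-binding proteins, Pabpc4, an inducible relative of Pabpc1, had the largest log2 fold change of the members. It lies on chromosome 4 from 123262351 to 123298925 on the plus strand, a position identical in the GRCm38 annotation. Its levels were 15.9 and 19.5 CPM in WT replicates 1 and 2 and 26.2 and 28.5 CPM in KO replicates 1 and 2, with 258 counts or more in each. The KO libraries were higher than both WT libraries by more than the gap between replicates of either genotype. In edgeR the difference came to 0.63 on the log2 scale (SE 0.23, p 0.040, adjusted p 0.686, with a 95% confidence interval of 0.04 to 1.21), and KO over WT gave a log2 ratio of 0.72 between the libraries numbered 1 and 0.55 between those numbered 2. Pabpc1 itself had 250 and 321 CPM in WT and 370 and 363 CPM in KO. The KO values again lay above both WT values, with a log2 fold change of 0.36 (SE 0.24 and adjusted p 0.912 in edgeR) and ratios of 0.56 and 0.18 within the numbers. All 4 poly(A)-binding and La-related members had a fold change above 0, with a median of 0.28 on the log2 scale, and 3 of 4 with length correction.

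The prion-like RNA-binding proteins, whose disordered domains take part in condensation, had a median close to 0, over a range from -0.06 to 0.37. Of 11, 9 had a log2 fold change above 0, or 6 with either length correction or DESeq2 size factors, and the median was 0.04. Tia1 was the highest of the group: 10.9 and 11.4 CPM in WT replicates 1 and 2, and 14.3 and 14.5 CPM in KO replicates 1 and 2. Replicates of a genotype were close to each other and the genotypes did not overlap, with a log2 fold change of 0.37 (SE 0.24 and adjusted p 0.904 in edgeR) and ratios of 0.39 and 0.34 within the numbers. Tial1 had 31.4 and 33.9 CPM in WT and 36.1 and 32.6 CPM in KO, overlapping, with a log2 fold change of 0.07 (SE 0.22 and adjusted p 0.983 in edgeR). Atxn2 had 11.3 and 16.6 CPM in WT and 14.4 and 13.0 CPM in KO, the KO values lying between the WT values, and a log2 fold change of -0.02 (SE 0.29 and adjusted p 0.995 in edgeR). Taf15 and Hnrnpa1, with log2 fold changes of 0.28 and 0.25, separated by replicate number instead. Taf15, a FET-family protein, had 36.0 and 66.2 CPM in WT and 48.7 and 75.1 CPM in KO. Hnrnpa1, a splicing regulator, had 34.4 and 55.9 CPM in WT and 40.6 and 66.5 CPM in KO.

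Of the 6 initiation factors, which stall on mRNA in SGs, 4 had a fold change above 0, or 3 with length correction. Eif4g1, the scaffold of the cap-binding complex, had 128 and 192 CPM in WT and 183 and 192 CPM in KO. WT replicate 1 was low and the other 3 libraries were close together, with a log2 fold change of 0.23 (SE 0.28 and adjusted p 0.964 in edgeR). Eif4a1 had 377 and 388 CPM in WT and 264 and 370 CPM in KO, where KO replicate 1 alone was far below the rest. Its log2 fold change was -0.27 (SE 0.26 and adjusted p 0.957 in edgeR), or -0.046 without KO replicate 1. The ratio was -0.52 within number 1 and -0.07 within number 2. Ybx1 had 1069 and 947 CPM in WT and 887 and 945 CPM in KO. WT replicate 2 and KO replicate 2 were nearly equal, and the log2 fold change was -0.14 (SE 0.21 and adjusted p 0.968 in edgeR), but 0.12 with length correction.

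Snd1, a Tudor-domain nuclease, had 66.0 and 61.1 CPM in WT and 80.9 and 66.7 CPM in KO, and its log2 fold change was 0.22 (SE 0.23 and adjusted p 0.962 in edgeR). The gap between KO replicate 2 and WT replicate 1 was small. Vcp, the segregase that takes part in SG clearance, had 143 and 179 CPM in WT and 195 and 214 CPM in KO. Its genotypes did not overlap, with a log2 fold change of 0.35 (SE 0.25 and adjusted p 0.926 in edgeR) and ratios of 0.45 and 0.26 within the numbers.

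The 5 members of decapping and the P-body scaffold all had fold changes above 0, with a median of 0.16 on the log2 scale, and 3 of 5 with length correction. Ddx6 had 203 and 272 CPM in WT and 258 and 270 CPM in KO. WT replicate 1 was low and the other libraries were alike, for a log2 fold change of 0.16 (SE 0.26 and adjusted p 0.971 in edgeR). Dcp1a had 15.2 and 20.5 CPM in WT and 19.1 and 21.9 CPM in KO, so its genotypes overlapped, and the log2 fold change was 0.20 (SE 0.26 and adjusted p 0.964 in edgeR). Leaving out WT replicate 1 gave 0.00076, leaving out WT replicate 2 gave 0.40, and length correction gave 0.033. Edc4 had 19.96 and 22.3 CPM in WT and 25.3 and 22.9 CPM in KO, with a log2 fold change of 0.19 (SE 0.22 and adjusted p 0.963 in edgeR). Its genotypes did not overlap, but WT replicate 2 and KO replicate 2 nearly met. Cnot1 had 81.0 and 106 CPM in WT and 118 CPM in each KO library. The KO libraries were thus alike and above both WT libraries, with a log2 fold change of 0.34 (SE 0.24 and adjusted p 0.928 in edgeR) and ratios of 0.54 and 0.16 within the numbers. With length correction the value was 0.080, and leaving out WT replicate 1 or WT replicate 2 gave 0.16 or 0.51.

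The genes of silencing, AU-rich and nonsense-mediated decay were split, with 3 of 5 above 0, or 2 of 5 with length correction. Ago2 had 134 and 109 CPM in WT and 230 and 125 CPM in KO. KO replicate 1 alone stood high, and the genotypes overlapped. Its log2 fold change of 0.54 (SE 0.36 and adjusted p 0.906 in edgeR) was the largest of the P-body and decay members, and it was 0.044 without KO replicate 1 and 0.16 with length correction. Upf1 had 19.1 and 35.2 CPM in WT and 30.9 and 34.9 CPM in KO. WT replicate 1 alone was low, with a log2 fold change of 0.28 (SE 0.34 and adjusted p 0.964 in edgeR). Zfp36 had 29.3 and 46.5 CPM in WT and 37.9 and 35.3 CPM in KO. The KO values lay between the WT values, with a log2 fold change of -0.05 (SE 0.30 and adjusted p 0.990 in edgeR) and ratios of 0.37 within number 1 and -0.40 within number 2.

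More members separated by replicate number than by genotype. Both libraries numbered 2 lay above both numbered 1 for 26 of 47 members (55.3%), against 25.2% of all genes, and both below for 2 of 47, against 23.2%. The 26 were 21 of 35 SG members and 5 of 12 P-body and decay members, while the 2, Edc3 and Ago2, were both P-body and decay members. What the numbers stand for is not given in the labels, and they were not tested as a condition.

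Initiation factors and RNA-binding proteins of SGs were among those with the widest gaps between numbers. Eif4e was 2.01-fold higher in replicate 2 than in replicate 1 in WT and 2.16-fold in KO. Eif4g2, a relative of Eif4g1 used in cap-independent initiation, was 1.88-fold and 1.59-fold higher, and Taf15 was 1.84-fold and 1.54-fold higher. Hnrnpa1 was 1.63-fold and 1.64-fold higher. Ewsr1, Fxr1 and Tial1, by contrast, varied little, with coefficients of variation over the 4 libraries of 4.90%, 5.03% and 5.97%. The median coefficient of variation was 16.6% over members and 22.2% over all genes tested.

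**Figure D3:**
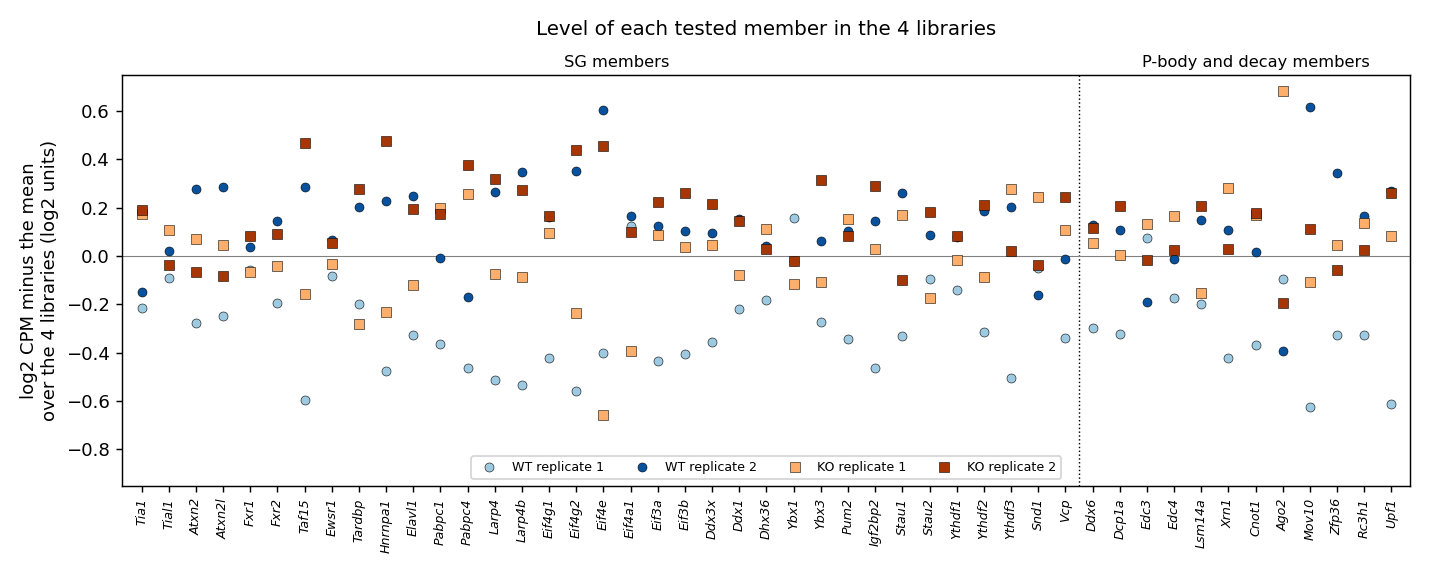
Log2 CPM of each tested member in each library minus the mean over the 4 libraries, with WT replicates in blue and KO replicates in orange, the darker shade being replicate 2. WT replicate 1 (light blue) is the lowest library for 38 of the 47 members.

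The difference between numbers was larger in WT. WT replicate 2 was above WT replicate 1 for 43 of 47 members, against 49.8% of all genes, with median log2 differences of 0.45 for SG members and 0.43 for P-body and decay members and -0.0029 for all genes. KO replicate 2 was above KO replicate 1 for 32 of 47, against 49.8%. Of these, 26 were among 35 SG members and 6 among 12 P-body and decay members, a difference that was not tested, with median log2 differences of 0.14 and -0.048 and -0.0039 for all genes.

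WT replicate 1 was the lowest of the 4 libraries for 38 of 47 members (28 SG and 10 P-body and decay), against 34.5% of all genes, a count chosen after its values were seen. Relative to each gene's mean, the median deviation in WT replicate 1 was -0.33 on the log2 scale for SG members and -0.32 for P-body and decay members, against -0.033 for all genes. In the other libraries the SG medians were 0.14 (WT replicate 2), -0.018 (KO replicate 1) and 0.18 (KO replicate 2). The P-body and decay medians there were 0.12, 0.11 and 0.071. Members took 0.505% of all counts in WT replicate 1 and 0.641%, 0.687% and 0.700% in WT replicate 2, KO replicate 1 and KO replicate 2.

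The KO to WT difference of the members therefore depended on the number within which it was taken. Within number 1, KO was above WT for 41 of 47 members, against 57.2% of all genes, and 12 of 12 P-body and decay members were among them. The medians were 0.30 for SG members, 0.42 for P-body and decay members and 0.11 for all genes on the log2 scale. Within number 2, KO was above WT for 26 of 47, against 49.8%, with medians of 0.023, 0.015 and -0.0015. Both ratios were positive for 23 of 47 members (48.9%, against 35.9% of all genes), and 18 were positive in number 1 and negative in number 2 (38.3%, against 21.2%). Pabpc4 and Tia1 were among those with like ratios in both. Members such as Ythdf3, Xrn1 and Mov10 turned sign, and Mov10 went from 0.51 within number 1 to -0.50 within number 2.

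**Figure D4:**
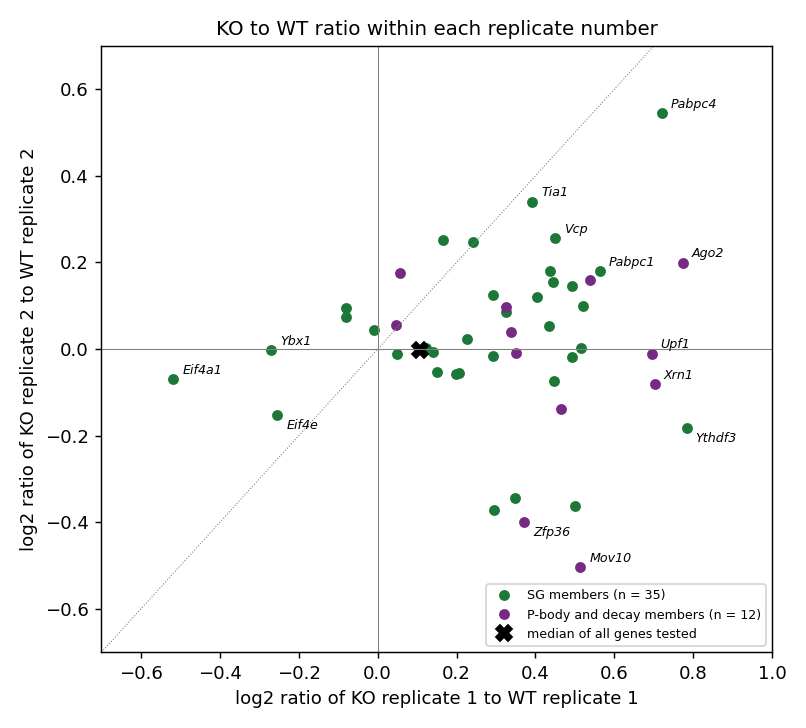
Log2 ratio of KO to WT within replicate number 1 (x axis) and within number 2 (y axis) for each tested member, with SG members in green, P-body and decay members in purple and the median of all genes tested as a cross. The dotted line marks equal ratios. In absolute size, the ratio within number 1 was the larger for 39 of 47 members (against 71.7% of all genes). Pabpc4 lies farthest up with both ratios positive.

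SG members were then set beside P-body and decay members. The log2 fold change was above 0 for 40 of 47 members, against 54.6% of all genes: 30 of 35 SG members and 10 of 12 P-body and decay members. The median was 0.14 for SG members (quartiles 0.030 and 0.26) and 0.17 for P-body and decay members (quartiles 0.097 and 0.28), against 0.041 for all genes tested. Without the 8 genes of both granules the medians were 0.14 over 33 SG members and 0.15 over 6 P-body and decay members. The classes thus overlapped over most of their range, and the difference between them was not tested.

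These medians rested on single libraries. Without WT replicate 1 they were -0.047 for SG and -0.020 for P-body and decay members, and without WT replicate 2 they were 0.36 and 0.37. Without KO replicate 2 the SG median was -0.0026 and the P-body median 0.18. Removing the trend of log ratios with transcript length lowered them to 0.063, with 23 of 35 above 0, and 0.015, with 6 of 12 above 0. Members have longer transcripts than most genes (median 4618 bases against 3284), and P-body and decay members the longest (median 5642).

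The promoters of the members were mostly rich in CpG, as were those of most genes tested. RefSeq promoters of GRCm38.p6, from 250 bases before to 50 after the start, were matched for 40 tested members and 9233 tested genes. The median ratio of observed to expected CpG was 0.948 for members and 0.770 for all. It was over 0.6 for 36 of 40 members, against 72.9% of all. The 4 with a lower ratio were Stau1, Mov10, Eif4e and Edc4. The letters TATAAA, searched on the gene's strand between 40 and 16 bases before the start, were in 0 of 40 members and in 1.08% of all promoters. A start at C followed by 4 pyrimidines, as in the 5′ terminal oligopyrimidine mRNAs of translation genes, was in 0 of 40 and in 2.27% of all. These are matches of letters in a window, and annotated starts may not be the ones used in these cells.

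Other genes of the same processes were counted beside the members, and 0 were called in any list under the same limits. Of 31 tested other SG proteins, 25 had a log2 fold change above 0 (median 0.18), or 20 with length correction, with both KO above both WT libraries in 8 (against 19.9% of all genes) and both below in 1 (against 16.9%). Ptbp1, a splicing repressor, had 55.8 and 80.3 CPM in WT and 96.7 and 99.9 CPM in KO (log2 fold change 0.53, SE 0.27 and adjusted p 0.848 in edgeR). KO lay above WT, and the level was again lowest in WT replicate 1, as it was for 23 of the 31.

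Other initiation factors lay the other way, with 9 of 26 above 0, or 11 with length correction, and a median of -0.11. Both KO lay above both WT libraries in 3 and below in 7, against the same 19.9% and 16.9%. Eif4h, the cofactor of eIF4A, had 220 and 242 CPM in WT and 130 and 176 CPM in KO (log2 fold change -0.60, SE 0.26 and adjusted p 0.814 in edgeR). Eif3g had 116 and 107 CPM in WT and 65.0 and 98.2 CPM in KO (log2 fold change -0.45, SE 0.28 and adjusted p 0.904 in edgeR). KO lay below WT in both, but the value of Eif3g was -0.042 with length correction and -0.18 without KO replicate 1. That of Eif4h was -0.54 and -0.40 under the same changes. The median transcript length of this list was 2796 bases, against 4944 for the other SG proteins.

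In the decay machinery, 14 of 22 other decapping and silencing genes were above 0 (median 0.081), or 10 with length correction. Lsm1, of the ring that binds deadenylated mRNA, had a log2 fold change of -0.53 (SE 0.27 and adjusted p 0.848 in edgeR) and its ring partner Lsm3 -0.56 (SE 0.27 and adjusted p 0.842 in edgeR). Of the other deadenylase genes 13 of 16 were above 0 (median 0.17), or 10 with length correction, with Cnot6l, a catalytic subunit, at 0.42 (SE 0.33 and adjusted p 0.939 in edgeR) and Cnot3 at 0.31 (SE 0.27 and adjusted p 0.945 in edgeR). Both rested on KO replicate 1, without which they were 0.052 and 0.11. For the RNA exosome, the 3′ to 5′ decay complex, 8 of 17 were above 0 (median -0.10), or 10 with length correction. Wdr61, of the SKI complex that feeds it, had 58.9 and 50.3 CPM in WT and 35.2 and 35.0 CPM in KO (log2 fold change -0.64, SE 0.23, edgeR p 0.035, adjusted p 0.673), the 1 gene of these lists at an unadjusted p under 0.05. Exosc3, a cap subunit of the exosome, was at -0.51 (SE 0.24 and adjusted p 0.842 in edgeR), or -0.10 with length correction. Of 20 other nonsense-mediated and AU-rich decay genes 12 were above 0 (median 0.057), or 13 with length correction. Magoh, of the exon junction complex, was at -0.63 (SE 0.25 and adjusted p 0.758 in edgeR) but at -0.0090 with length correction, and Smg6, the endonuclease of nonsense-mediated decay, at 0.59 (SE 0.33 and adjusted p 0.879 in edgeR), or 0.23 without KO replicate 1.

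Markers of the cells were counted over the same libraries. All 10 macrophage markers were detected in every library, with summed levels of 26801 and 24987 CPM in WT and 21432 and 24951 CPM in KO. The log2 fold change was above 0 for 2 of 11 tested genes with these symbols, with a median of -0.18. Stromal markers summed to 78.6 and 92.1 CPM in WT and 345 and 322 CPM in KO, with KO above WT without overlap for 7 of 8 (against 19.9% of all genes) and none at 0 in a library. Of the proliferation genes, 15 of 16 were above 0 (median log2 fold change 0.77) and KO lay above WT without overlap for 12 (against the same 19.9%). The summed level, which Pcna dominates, was 582 and 415 CPM in WT and 518 and 463 CPM in KO. Neutrophil markers summed to between 25.6 and 28.2 CPM in WT and between 7.88 and 11.8 CPM in KO, with Mpo and Elane at 0 counts in all libraries. B cell markers summed to between 43.1 and 47.0 CPM in WT and between 23.4 and 27.0 CPM in KO, mast cell and basophil markers to between 34.0 and 36.5 and between 18.2 and 21.98, and erythroid markers to between 7.34 and 10.3 and between 1.88 and 2.39. Dendritic cell markers, at between 3.70 and 7.59 CPM, and T and NK cell markers, at between 0.558 and 1.79 CPM, were low throughout. The part of these cells in the members' values was not tested. In such bulk RNA, fewer cells of a type and less RNA per cell cannot be told apart.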

How the data were processed

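Total RNA of 4 macrophage libraries, 2 per genotype, was sequenced. The authors filtered reads with Seqtk, aligned them with HISAT2 2.0.4 and counted them with StringTie 1.3.3b per the submitters' processing notes and the study's methods, and deposited whole-number counts per gene without normalisation. Beside them the authors deposited FPKM, which scale each count by gene length and library total. The notes name mm39, but 27686 of 34267 shared genes, 36 of 48 members among them, have the position of GENCODE M21 on GRCm38. Use of strand in counting is not given in the sources used here, so a gene's count may hold reads of an overlapping or antisense gene.

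Tests were run with edgeR 4.0.16 under R 4.3.3. Genes passing filterByExpr (minimum count 10, minimum total 15; 12418 of 17991 with a count) were scaled by TMM (factors 0.942 to 1.12) and tested by glmQLFit and glmQLFTest with genotype as the only term, two-sided, with Benjamini-Hochberg adjustment over all genes tested. The limits for a call were 0.05 on the adjusted p and 1 on the absolute log2 fold change. CPM used TMM-scaled totals, and log2 ratios between libraries had 0.5 counts added. Lengths were those of the longest GENCODE M21 transcript. Comparing the libraries in pairs gave a chi-square of 21.6 to 118 per degree of freedom, beyond sampling noise, so none was counted as a copy. A count of 0 allows up to 3 counts, counting error only.

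Members, classes and gene lists were chosen with earlier results of these data known. Fold changes were given for Tia1, Tial1, Pabpc1, Atxn2, Eif4g1, Ddx6, Dcp1a, Ago2, Upf1, Zfp36 and G3bp1, for members whose genotypes did not overlap, and for the 2 smallest p-values per list of related genes, of which 1 gene is not reported here. Other members were named by their levels or for a pattern seen in them. Alternatives were DESeq2 1.42.0 size factors and Wald test, a minimum mean CPM of 1, no filter, the edgeR exact test, limma 3.58.1 on log2(FPKM + 1), a loess correction for gene length (span 0.5), a replicate block, and each library left out. The code was tested on simulated data.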

Additional observations from a re-analysis of the deposited data

How the results depend on the processing

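With 2 libraries per genotype the biological coefficient of variation was 0.34, which limits the precision of every fold change. Under 13 alternatives 0 members were called, also where other tests called genes elsewhere (181 genes by the DESeq2 Wald test, 230 by the edgeR exact test, 0 by edgeR's quasi-likelihood test). With no minimum fold change, 1 member was called under 1 alternative, the replicate block with length correction, where 723 of all genes (5.82%) were: Pabpc4, log2 fold change 0.64, edgeR adjusted p 0.034. Under that setting and rule G3bp1 (log2 fold change -0.83, edgeR adjusted p 0.0022), Eif4h (-0.55, adjusted p 0.031) and Wdr61 (-0.64, adjusted p 0.032) also passed. The replicate numbers share only a number: deviations from genotype means correlated at 0.73 between same-numbered libraries across genes, but there were 2 pairs and no label says what a number marks. With the replicate block 664 genes were called, and 497 with block and length correction. Leaving out WT replicate 1 or WT replicate 2 gave 1 called gene each, and leaving out either KO library gave 0. These 4 of the 13 fits leave 1 genotype with a single library, which is assumed to vary like the other genotype, so they say little about the absence of calls.

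Leaving out each library in turn gave SG medians from -0.047 to 0.36 and P-body and decay medians from -0.020 to 0.37. Non-overlapping members numbered 8, not 9, under DESeq2 size factors (6 higher, against 17.4% of all genes, and 2 lower, against 19.1%) and length correction (6, against 20.1%, and 2, against 11.8%). Members with both libraries numbered 2 below both numbered 1 were 3, not 2, under each of these (against 23.7% and 25.9% of all genes), an alternative added after seeing the data, and those above numbered 26 and 29 (against 25.4% and 28.2%). WT replicate 1 was lowest for 36 and 32 (against 31.2% and 34.9%).

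The sign of these uncalled fold changes turned, and the cause was not tested. With length correction, alone and with the block, Tial1 was -0.033 and -0.034, Ybx1 0.12 and 0.12, and Ddx6 -0.035 and -0.031, and with both Zfp36 was 0.036. With limma, Atxn2 was 0.056, Ybx1 0.017 and Zfp36 0.13, where the median over all genes was 0.11, against 0.041 in the main comparison. Leaving out single libraries, Tial1 ranged from -0.0011 to 0.14, Atxn2 from -0.27 to 0.25, Eif4g1 from -0.030 to 0.52, Ddx6 from -0.040 to 0.35, Zfp36 from -0.35 to 0.29 and Upf1 from -0.095 to 0.75. Without a turn of sign, Pabpc1 ranged from 0.19 to 0.52, Vcp from 0.19 to 0.48, Snd1 from 0.071 to 0.34, Edc4 from 0.11 to 0.25 (0.059 with length correction), Ptbp1 from 0.29 to 0.78, Lsm1 from -0.75 to -0.33 and Lsm3 from -0.82 to -0.29. Pabpc4 kept its direction under the 13 alternatives, from 0.49 to 0.75, as did Tia1 from 0.13 to 0.38 and G3bp1 from -1.03 to -0.19.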
